A study of Mus musculus with 2 samples.

Results

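The genes described here are the nuclear-encoded genes of the mitochondrial respiratory chain and the ATP synthase, measured by spatial transcriptomics in mouse tongue. They were chosen by name, as every listed gene whose symbol starts with Nduf, Sdh, Uqcr or Atp5, or with Cox and a digit from 4 to 8, together with Cycs and Cyc1. This gave 51 genes of the 879 genes listed for either section, with 10 of 298 listed genes in the H3K36M section and 51 of 865 in the WT section. All 10 genes of the H3K36M section were among the 51 of the WT section.

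Each section came from the tongue of a mouse treated with 4NQO, a carcinogen given to mice to model cancer of the mouth. The H3K36M mouse carried Krt14-Cre(+) and LSL-H3K36M, so that Cre under the promoter of Krt14, a keratin of basal epithelial cells, switched on a mutant histone H3 that cannot be methylated at lysine 36. The WT mouse carried Krt14-Cre(-) and the same LSL-H3K36M allele, so both mice held the allele and both received 4NQO. Strain, age and dose were not given in the sources used. There was 1 section per genotype, so the spread between animals is unknown and the genotypes were not tested against each other.

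The respiratory chain passes electrons from NADH and succinate through complexes I to IV to oxygen, and the proton gradient that this builds drives the ATP synthase, complex V. Complexes I, III, IV and V are mosaics of 2 genomes. Each includes at least 1 subunit encoded by mitochondrial DNA, and most of their other subunits are encoded in the nucleus, made in the cytosol and imported. Complex II is encoded in the nucleus alone. Skeletal muscle, which fills the body of the tongue beneath its epithelium, is rich in mitochondria and uses tissue-specific forms of some complex IV subunits.

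Tissue covered 252 spots with a median of 763.5 unique molecular identifiers (UMIs, 1 per captured transcript molecule) in the H3K36M section, against 364 spots with a median of 4899 UMIs in the WT section. The spots had been grouped by the authors into 4 clusters in the H3K36M section, with 17291, 306551, 193928 and 53037 UMIs, and into 3 clusters in the WT section, with 856199, 1354340 and 72775 UMIs. A gene was listed only if its average reached 1 in at least 1 cluster, a limit equal to 7.24 UMIs per 10000 in the H3K36M section and 1.99 UMIs per 10000 in the WT section. Levels are given below as the UMIs of a gene in every 10000 UMIs of its cluster, unless a log2 fold change is named. Parentheses hold 95% intervals that cover counting error only. The tongue surface keratin gene Krt13 was detected at 309 UMIs per 10000 (304 to 313) in the H3K36M section and 324 (321 to 326) in the WT section. Of the lists for adipocytes (8 genes), fibroblasts (8) and endothelium (6), 0 genes were listed for either section. Cd74 and H2-Ab1 were listed of 10 macrophage and antigen presentation genes, in the WT section, and Ltf of 12 salivary gland genes, in the H3K36M section. The transcript of the mutant histone was not analysed here.

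The 51 genes covered complexes I, III, IV and V unevenly. Among 100 protein-coding gene entries with these names in the GENCODE annotation of GRCm38, assembly factors included, 51 were listed for neither section. Complex III had 7 listed genes, complex IV had 11, complex V had 17 and the Nduf genes numbered 16. None of the 8 Sdh genes of complex II and its assembly, and not Cycs, which encodes cytochrome c, was listed. Ndufb1-ps was kept because its name meets the rule, although GENCODE types it as a long noncoding RNA. Many genes of this group have near-identical processed copies in the genome, and how reads shared with such copies were counted is not stated in the sources used here. The 51 genes lay on 19 chromosomes.

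The summed level of nuclear-encoded respiratory chain genes in the WT section was lower in cluster 1 than in the other clusters pooled. In cluster 2 it was higher than in the others pooled, while the intervals of clusters 2 and 3 overlapped. Both directions held against all UMIs and not against ribosomal protein UMIs. Cluster 1 had 4 of 4 hair-type keratin genes and 17 of 18 squamous differentiation genes higher, and cluster 2 had 6 of 7 basal keratinocyte genes higher, in the authors' deposited table. Cd74 and H2-Ab1, the only genes listed of 10 macrophage and antigen presentation genes, were also higher in cluster 2. Because that list mixes macrophage and antigen presentation genes, these 2 do not single out macrophages. Summed, Cd74 and H2-Ab1 stood at 2.44 (2.12 to 2.80), 4.999 (4.63 to 5.39) and 2.34 (1.36 to 3.74) in clusters 1 to 3. Their part in the respiratory chain values of cluster 2 was not tested. In clusters 1, 2 and 3, the 51 genes together took 150 (147 to 152), 216 (214 to 219) and 211 (201 to 222) UMIs per 10000. The rate in cluster 2 was 1.40 times that of the other clusters pooled (1.37 to 1.43), whose UMIs were mostly those of cluster 1. The rate in cluster 1 was 0.694 times that of the other clusters pooled (0.680 to 0.708). Per UMI of cytosolic ribosomal protein genes the order turned round, with values in clusters 1, 2 and 3 of 0.163 (0.160 to 0.166), 0.130 (0.128 to 0.132) and 0.170 (0.161 to 0.180). In the authors' deposited table, 82 of 82 ribosomal protein genes were lower in cluster 1 and 81 of 82 higher in cluster 2. Among all 865 genes, 43.7% were lower in cluster 1 and 43% higher in cluster 2. The respiratory chain genes thus differed between clusters 1 and 2 by less than the ribosomal protein genes did.

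Gene by gene, 45 of the 51 were lower and 0 higher in WT cluster 1 at a p-value under 0.05 in the authors' deposited table, where 43.7% of all 865 genes were lower and 33.2% higher. In cluster 2, 41 were higher and 1 lower in the authors' deposited table, where 43% of all genes were higher and 34.6% lower. The median log2 fold change of the 51 genes was -0.56 in cluster 1 and 0.52 in cluster 2, beside medians of -0.18 and 0.17 over all 865 genes. Clusters 1 and 2 held nearly all UMIs of the section, so these counts mirror each other. These p-values treat spots of 1 section as if they were replicates, and they test clusters that the same counts had defined. The file headers do not say whether they were adjusted.

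**Figure D1:**
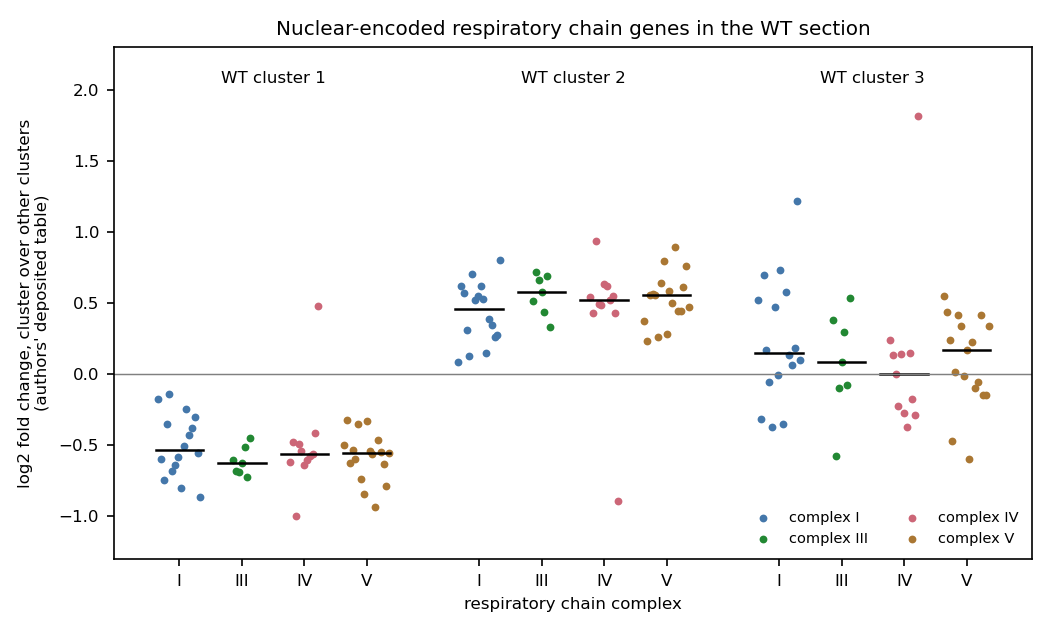
Each point is 1 of the 51 genes, placed by complex on the horizontal axis and by its log2 fold change (the cluster over the other clusters of the WT section, authors' deposited table) on the vertical axis, with black lines at medians. All genes but the muscle isoform gene Cox8b lie below 0 in cluster 1 and above 0 in cluster 2. Medians of the 4 complexes lie between -0.62 and -0.53 in cluster 1 and between 0.46 and 0.58 in cluster 2. Per UMI of ribosomal protein genes the order turned round for the sum of the 51 genes, and single genes were not set on that scale.

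The complexes had similar medians. Complex III, which passes electrons from ubiquinol to cytochrome c, had 7 of 7 genes lower in WT cluster 1 and 6 of 7 higher in WT cluster 2 in the authors' deposited table. In cluster 2, Cyc1, the cytochrome c1 subunit, stood at 0.51 and Uqcrh, the hinge protein, at 0.69, and Uqcrc1, a core subunit, was the gene with a p-value above 0.05, at 0.44, in the authors' deposited table. Complex V had 17 of 17 genes lower in cluster 1 and 15 of 17 higher in cluster 2 in the authors' deposited table. Complex IV, cytochrome c oxidase, had 10 of 11 lower and 10 of 11 higher there. The Nduf genes had 11 of 16 lower and 10 of 16 higher in the authors' deposited table, and the remaining members had fold changes of the same sign at p-values above 0.05. The median log2 fold changes in cluster 2 were 0.46 for Nduf genes, 0.58 for complex III, 0.52 for complex IV and 0.56 for complex V.

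The widest differences between these clusters were in Cox5b, Atp5j2 and Ndufv3. Cox5b, a zinc-binding subunit of complex IV, had 183 UMIs or 2.14 per 10000 (1.84 to 2.47) in cluster 1, 585 UMIs or 4.32 (3.98 to 4.68) in cluster 2 and 26 UMIs or 3.57 (2.33 to 5.23) in cluster 3. In the authors' deposited table it stood at -1.0 in cluster 1 and 0.94 in cluster 2 on the log2 scale. Atp5j2, the f subunit of the membrane part of ATP synthase, had 2.53 (2.21 to 2.90), 4.90 (4.54 to 5.29) and 3.85 (2.56 to 5.56) UMIs per 10000 in clusters 1 to 3. For both genes the intervals of clusters 1 and 2 were apart, and cluster 3 could not be placed between them at its depth. Ndufv3, a small subunit at the NADH-binding tip of complex I, had 1.19 (0.971 to 1.45), 2.19 (1.94 to 2.45) and 1.92 (1.05 to 3.23). Ndufv3 reached the listing limit through cluster 2 alone, so that it was highest there was fixed by the listing.

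Ndufa4 and Ndufa11 had the smallest differences between clusters 1 and 2 among the genes with a fold above 0 in cluster 2. Ndufa4 was named as a subunit of complex I and is now placed with complex IV. It had 12.2 (11.5 to 13.0), 13.4 (12.8 to 14.1) and 13.2 (10.7 to 16.1) UMIs per 10000 in WT clusters 1 to 3, and the 3 intervals overlapped. Its log2 fold change was -0.14 in cluster 1 and 0.13 in cluster 2, at p-values of 0.24 and 0.27, in the authors' deposited table. Ndufa11, a membrane subunit of complex I, had -0.18 and 0.09 on the log2 scale at p-values of 0.61 and 0.85 in the authors' deposited table.

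Cox8b departed from the rest. It encodes the form of complex IV subunit 8 used by heart and skeletal muscle in mice, while Cox8a encodes the form found in most tissues. Cox8b had 82 UMIs or 0.958 per 10000 (0.762 to 1.19) in WT cluster 1, 79 UMIs or 0.583 (0.462 to 0.727) in cluster 2 and 19 UMIs or 2.61 (1.57 to 4.08) in cluster 3. It was the 1 member lower in cluster 2 and the 1 member higher in cluster 3, at log2 values of -0.89 and 1.81 by the authors' deposited table, where 3.93% of all genes were higher in cluster 3. In the same clusters 1 to 3, Cox8a had 3.50 (3.12 to 3.92), 4.72 (4.36 to 5.10) and 3.57 (2.33 to 5.23) UMIs per 10000. Cox8b reached the listing limit through cluster 3 alone, so its high value there was fixed by the listing. The other muscle isoform genes, Cox6a2 and Cox7a1, were not listed.

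Muscle transcripts were also highest in WT cluster 3. Of 33 genes of the skeletal muscle list, 14 were listed for the WT section. The 13 other than Cox8b took 31.2 (30.1 to 32.4), 26.6 (25.8 to 27.5) and 68.6 (62.7 to 74.9) UMIs per 10000 in WT clusters 1 to 3, and 8 of the 13 were higher and 0 lower in cluster 3 in the authors' deposited table. The part of muscle in the respiratory chain values of cluster 3 was not tested. In these spots, fewer cells of a type and less RNA per cell cannot be told apart.

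Apart from Cox8b, no gene stood apart in cluster 3 by its deposited p-value. Of the 51, 1 was higher and 0 lower in the authors' deposited table, where 1.5% of all genes were lower, and the median log2 fold change was 0.13. Ndufv1, the flavoprotein that binds NADH, had 0.888 (0.699 to 1.11), 1.24 (1.06 to 1.44) and 2.61 (1.57 to 4.08) UMIs per 10000 in clusters 1 to 3, and Ndufb10 had 1.07 (0.866 to 1.32), 1.84 (1.62 to 2.08) and 2.61 (1.57 to 4.08). Each rested on 19 UMIs in cluster 3, and its log2 fold change there, 1.22 for Ndufv1 and 0.74 for Ndufb10 in the authors' deposited table, had a p-value above 0.05. The lowest values in cluster 3 were those of Atp5h at -0.59, Uqcr10 at -0.57 and Atp5d at -0.47 in the authors' deposited table, also with p-values above 0.05. Ndufv1, Ndufb10, Ndufb5, Ndufa11 and Cox8b were listed through cluster 3 alone, which had the fewest UMIs, and Ndufv3, Ndufa6, Ndufa12 and Ndufb4 through cluster 2 alone. Of the others, 32 reached the limit in all 3 clusters and 10 in clusters 2 and 3.

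Other mitochondrial and energy genes of the WT section were counted beside these. Of 16 listed genes for mitochondrial carriers, import and other mitochondrial functions, 10 were higher and 1 lower in cluster 2 in the authors' deposited table, where 43% of all genes were higher and 34.6% lower. As above, these calls rest on all UMIs. The mitochondrial chaperonin gene Hspe1 stood at 1.31, Atpif1, the inhibitor of ATP hydrolysis by the ATP synthase, at 1.09 and the import subunit gene Tomm7 at 1.01 in the authors' deposited table. The lower gene was the peroxiredoxin gene Prdx5, at -0.52. Slc25a5, a carrier that exchanges ADP for ATP across the inner membrane, was higher in cluster 2 at 0.91, while its muscle and heart form Slc25a4 had 0.08 there and 0.80 in cluster 3 at p-values above 0.05, in the authors' deposited table. Of 4 listed genes of the citric acid cycle and fatty acid oxidation list, Mdh1, the cytosolic malate dehydrogenase, was higher in cluster 2 at 0.73, and Cs, Mdh2 and Got2 had p-values above 0.05 in the authors' deposited table. Of 10 listed glycolysis genes, 7 were higher and 0 lower in cluster 2, beside the same 43% and 34.6% of all genes, with a median of 0.52 on the log2 scale, in the authors' deposited table.

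Promoter sequences of RefSeq (GRCm38.p6) were matched to 42 of the 51 genes, 40 by symbol and 2 (Atp5f1 and Ndufb1-ps) by another symbol, from 250 bases before to 50 bases after the annotated start. They are shown because nuclear respiratory factor 1 (NRF1), ETS-family factors and YY1 are known to act at promoters of respiratory chain genes. A link between the motifs and the levels in the clusters was not tested. The NRF1 palindrome, the 10 capitals in each of the first 5 stretches below, was found in 5 of 42 (11.9%), against 1.07% of all 27025 genes with a promoter in the table. Its core GCATGCGC, which the palindrome contains, was found on either strand in 8 (19%, against 3.05%), the ETS letters CCGGAAG in 11 (26.2%, against 9.93%) and the YY1 letters AAGATGGC in 6 (14.3%, against 3.19%). All genes include those not expressed in tongue, so these shares describe letters and not sites. The 5 stretches with the palindrome come first, then Uqcr11, the 1 gene with the core that was listed for both sections, and Atp5j2, the gene with the YY1 letters that had the highest fold change in WT cluster 2. Each stretch has 30 bases, 5′ to 3′ on the strand of the gene, with the motif in capitals.
Atp5g2, chr15:102671070-102671099, minus strand: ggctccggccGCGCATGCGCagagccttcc
Atp5k, chr5:108434430-108434459, minus strand: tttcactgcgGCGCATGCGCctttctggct
Cox6a1, chr5:115349101-115349130, minus strand: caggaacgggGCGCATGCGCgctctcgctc
Ndufa11, chr17:56717692-56717721, plus strand: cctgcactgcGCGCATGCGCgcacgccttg
Uqcrc1, chr9:108936668-108936697, plus strand: actccgctctGCGCATGCGCagcgcggctc
Uqcr11, chr10:80406807-80406836, minus strand: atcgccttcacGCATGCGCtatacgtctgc
Atp5j2, chr5:145191500-145191529, minus strand: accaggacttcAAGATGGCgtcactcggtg
The genes with the palindrome did not share a fold change. In WT cluster 2, Atp5g2, 1 of 3 genes for the c subunit that forms the rotor ring, stood at 0.80, Atp5k at 0.44, Cox6a1 at 0.49 and Uqcrc1 at 0.44, while Ndufa11 stood at 0.09 in the authors' deposited table. The promoters of Cox5b, Ndufv3 and Cox8b held none of the 4 motifs.

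In the H3K36M section, 10 of these genes were listed. Against all UMIs their summed level was higher in cluster 2 and lower in cluster 3 than in the other clusters pooled. The interval of cluster 2 overlapped that of cluster 1, and the interval of cluster 3 overlapped that of cluster 4. Against ribosomal protein UMIs cluster 2 was not higher. Of 76 ribosomal protein genes, 55 were themselves higher in cluster 2 in the authors' deposited table, beside 33.9% of all genes. In cluster 3, 38 of the 76 were lower there, beside 34.6% of all genes. In the authors' deposited table, cluster 2 had 9 of 9 mitochondrially encoded genes higher and cluster 3 had 16 of 16 squamous differentiation genes higher. Cluster 4 had 3 of 3 simple or ductal epithelium genes and the salivary gene Ltf higher there. In clusters 1, 2, 3 and 4, the 10 genes together took 81.0 (68.1 to 95.5), 78.7 (75.6 to 82.0), 55.9 (52.7 to 59.4) and 61.7 (55.2 to 68.7) UMIs per 10000. The rate in cluster 2 was 1.34 times that of the other clusters (1.26 to 1.43) and that in cluster 3 was 0.732 times (0.682 to 0.785), and both directions held when mitochondrially encoded genes were left out of the UMIs and when only genes listed for both sections were counted. For clusters 1 and 4 no direction is given. The interval of the ratio for cluster 1 held 1, at 1.17 (0.982 to 1.39). The ratio for cluster 4, 0.877 (0.781 to 0.983), became 1.31 when only UMIs of genes listed for both sections were counted. Per UMI of ribosomal protein genes listed for both sections, clusters 2 and 3 overlapped, at 0.0497 (0.0477 to 0.0518) and 0.0493 (0.0464 to 0.0524), below clusters 1 and 4 at 0.0733 (0.0613 to 0.0871) and 0.0636 (0.0567 to 0.0711). Atp5d, Ndufb9 and Uqcr11 were listed through cluster 1 alone, and Cox6c, Cox7c and Atp5e through cluster 2 alone. Such listing favours high sums in clusters 1 and 2 on either scale, and sums without these genes were not counted. Muscle transcripts also differed between these clusters. The 12 listed of 33 muscle genes took 176 (157 to 197), 94.5 (91.1 to 98.0), 42.5 (39.6 to 45.5) and 61.7 (55.2 to 68.7) UMIs per 10000 in clusters 1 to 4, with 7 higher in cluster 1, 6 higher in cluster 2 and 11 lower in cluster 3 in the authors' deposited table. Their part in the respiratory chain values was not tested.

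At a p-value under 0.05 in the authors' deposited table, 4 of the 10 were higher and 0 lower in cluster 2, where 33.9% of all 298 genes were higher and 30.5% lower. In cluster 3, 4 were lower and 0 higher in the authors' deposited table, where 34.6% of all genes were lower and 23.5% higher. These shares are near those of all listed genes. The median log2 fold change was 0.42 in cluster 2 and -0.43 in cluster 3, beside 0.10 and -0.26 over all genes. In clusters 1 and 4 none of the 10 had a p-value under 0.05 in the authors' deposited table, where 4.36% of genes were higher and 6.38% lower in cluster 1, and 18.5% higher and 36.2% lower in cluster 4.

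Cox6c, Cox7c, Atp5b and Atp5a1 were the genes called in both clusters. Cox6c and Cox7c, like Atp5e, were listed through cluster 2 alone, which made them highest in it by construction, and they enter the summed rate of cluster 2. Atp5b, the catalytic beta subunit of ATP synthase, had 12.1 (7.52 to 18.6), 14.2 (12.9 to 15.6), 9.69 (8.36 to 11.2) and 8.30 (6.03 to 11.1) UMIs per 10000 in clusters 1 to 4. Atp5a1, the alpha subunit that alternates with it in the catalytic head, had 11.0 (6.62 to 17.2), 9.17 (8.13 to 10.3), 5.47 (4.48 to 6.61) and 8.30 (6.03 to 11.1). Both were higher in cluster 2 than in cluster 3, with intervals apart. Cox7c, a small subunit of complex IV, had 6.36 (3.18 to 11.4), 7.80 (6.84 to 8.85), 3.56 (2.77 to 4.50) and 6.22 (4.28 to 8.74), with the lowest log2 fold change of the 10 in cluster 3, -1.07 in the authors' deposited table. Cox6c, another small subunit of complex IV, had 2.31 (0.630 to 5.92), 10.5 (9.42 to 11.8), 5.88 (4.85 to 7.06) and 6.60 (4.60 to 9.18). Its low value in cluster 1, -1.67 on the log2 scale by the authors' deposited table, rested on 4 UMIs and had a p-value above 0.05.

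Atp5d, the delta subunit of the central stalk of ATP synthase, had a fold below 0 in cluster 2 that its p-value did not set apart. It had 16 UMIs or 9.25 per 10000 (5.29 to 15.03) in cluster 1, 111 UMIs or 3.62 (2.98 to 4.36) in cluster 2, 94 UMIs or 4.85 (3.92 to 5.93) in cluster 3 and 26 UMIs or 4.90 (3.20 to 7.18) in cluster 4, and the intervals of clusters 2, 3 and 4 overlapped. It was the 1 gene of the 10 with a log2 fold change below 0 in cluster 2, -0.50 in the authors' deposited table, at a p-value of 0.14. Among UMIs of the 10 genes it made up 11.4% (6.68 to 17.9), 4.60% (3.80 to 5.51), 8.66% (7.06 to 10.5) and 7.95% (5.26 to 11.4) in H3K36M clusters 1 to 4. In the WT section it made up 4.72% (4.12 to 5.38), 5.08% (4.65 to 5.53) and 3.29% (1.93 to 5.21) in clusters 1 to 3. The shares need no scaling, but which genes enter them rests on the listing limit. Of the other genes in the total, 3 (Cox6c, Cox7c and Atp5e) were listed through H3K36M cluster 2 alone, which lowers the share of Atp5d there. Atp5d itself was listed through H3K36M cluster 1 alone, which favours a high share there.

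Cox4i1, the regulatory subunit of complex IV, was even. It had 7.52 (4.00 to 12.9), 7.86 (6.90 to 8.92), 6.86 (5.74 to 8.13) and 8.48 (6.19 to 11.4) UMIs per 10000 in H3K36M clusters 1 to 4, and all intervals overlapped. The remaining genes, Atp5e, Ndufa4, Ndufb9 and Uqcr11, had p-values above 0.05 in every cluster in the authors' deposited table. Atp5d, Ndufb9 and Uqcr11 were listed through cluster 1 alone, on 16, 13 and 16 UMIs there, so that they were highest in cluster 1 was fixed by the listing.

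**Figure D2:**
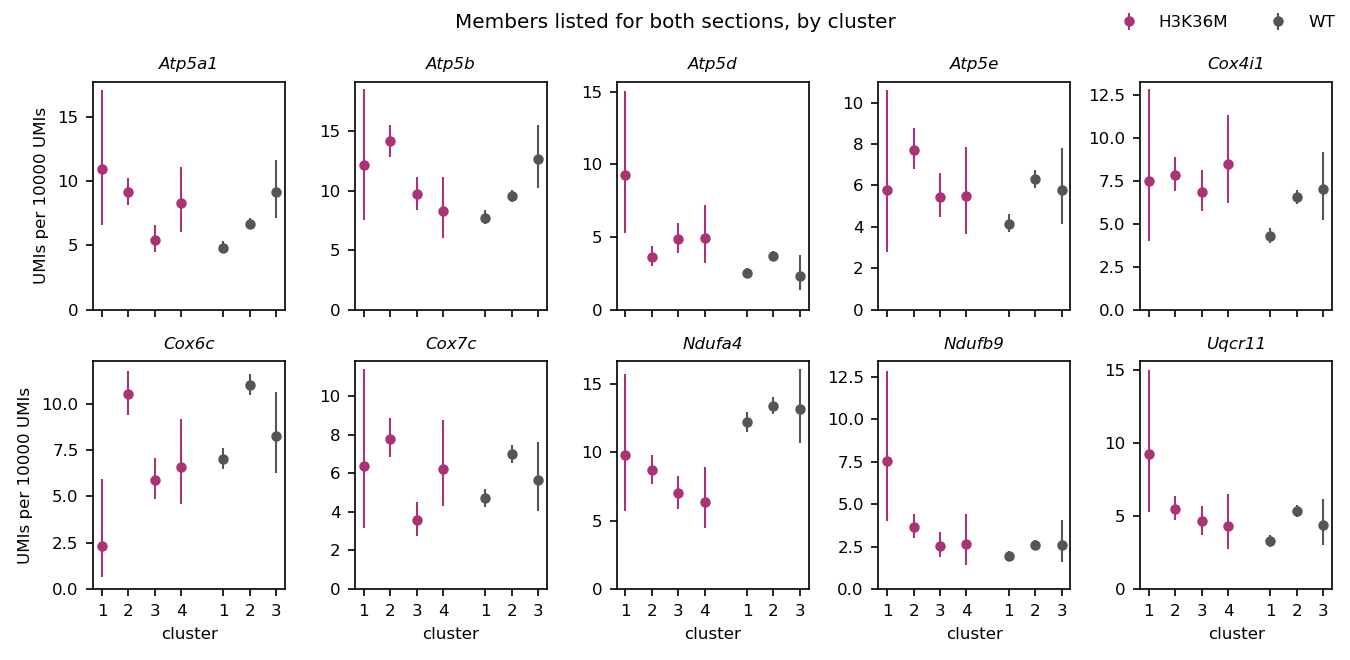
Rates of the 10 genes listed for both sections (vertical axes, UMIs per 10000 UMIs, each from 0) in the clusters of the H3K36M section (1 to 4, left) and of the WT section (1 to 3, right). Bars are 95% Poisson intervals for counting error only; Ndufa4 lies between 6.41 and 9.83 in H3K36M clusters and between 12.2 and 13.4 in WT clusters, and Atp5d is lowest in cluster 2 among H3K36M clusters.

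The nuclear-encoded genes differed less between H3K36M clusters than the mitochondrially encoded genes of the same complexes. Between WT clusters 1 and 2 the nuclear-encoded genes differed more against all UMIs and less against ribosomal protein UMIs. In the H3K36M section the 9 listed mitochondrially encoded genes took 154 (136 to 174), 609 (600 to 618), 138 (133 to 144) and 60.9 (54.4 to 67.9) UMIs per 10000 in clusters 1 to 4. They lay between 60.9 and 609, whereas the 10 nuclear genes lay between 55.9 and 81.0. In cluster 2 the mitochondrially encoded genes were 4.92 times as high as in the other clusters (4.74 to 5.11), and the nuclear genes 1.34 times. In cluster 3 the mitochondrially encoded genes were at 0.271 times the other clusters and the nuclear genes at 0.732 times, so both sets lay on the same side in clusters 2 and 3. Cluster 4 had 9 of 9 mitochondrially encoded genes lower in the authors' deposited table, with a median log2 fold change of -2.86. Of the 10 nuclear genes 0 were lower, and their median was -0.28. Among all 298 genes 36.2% were lower there, with a median of -0.48. The nuclear genes had 14 to 45 UMIs each in cluster 4, which limits what these calls show.

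The ratio of nuclear to mitochondrially encoded UMIs needs no scaling between clusters. Over the genes listed for both sections it was 0.524 (0.424 to 0.646), 0.129 (0.124 to 0.135), 0.404 (0.377 to 0.434) and 1.01 (0.865 to 1.18) in H3K36M clusters 1 to 4. It was 0.259 (0.251 to 0.268), 0.374 (0.365 to 0.382) and 0.222 (0.202 to 0.245) in WT clusters 1 to 3. H3K36M clusters 1 and 4 lay above the WT clusters and H3K36M cluster 2 below them, with intervals apart, while the interval of H3K36M cluster 3 overlapped that of WT cluster 2. The nuclear genes in this ratio were those that passed the H3K36M listing, so values between the sections are not a free comparison. In the whole sections it was 0.181 (0.175 to 0.187) in the H3K36M section and 0.323 (0.317 to 0.329) in the WT section.

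Within the WT section the summed nuclear and mitochondrially encoded genes differed in direction in cluster 2 against all UMIs, and not against ribosomal protein UMIs. In cluster 2, 41 of 51 nuclear genes were higher, while 0 of 9 mitochondrially encoded genes were higher and 5 were lower in the authors' deposited table. Among all 865 genes, 43% were higher and 34.6% lower there. In cluster 3, 6 of the 9 mitochondrially encoded genes were higher, and of the 51 nuclear genes 1, Cox8b, in the authors' deposited table. Among all genes 3.93% were higher in cluster 3, so the share of nuclear genes there was near that of all genes. The mitochondrially encoded genes took 203 (200 to 206), 193 (191 to 195) and 319 (306 to 333) UMIs per 10000 in WT clusters 1 to 3. Per UMI of ribosomal protein genes listed for both sections they stood at 0.225 (0.222 to 0.229), 0.118 (0.117 to 0.120) and 0.261 (0.250 to 0.274), lowest in cluster 2. The sum of the 51 nuclear genes per ribosomal protein UMI was lowest there too. Muscle transcripts were highest in the same WT cluster 3. In the H3K36M section muscle transcripts were highest in cluster 1, whereas the mitochondrially encoded genes were highest in cluster 2.

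Complexes IV and V showed the same order of H3K36M clusters 2, 3 and 4. For complex IV, Cox4i1, Cox6c and Cox7c over mt-Co1, mt-Co2 and mt-Co3 gave 0.206 (0.132 to 0.311), 0.0708 (0.0659 to 0.0761), 0.196 (0.173 to 0.221) and 0.598 (0.469 to 0.759) in H3K36M clusters 1 to 4, against 0.128 (0.121 to 0.135), 0.204 (0.197 to 0.212) and 0.111 (0.0929 to 0.131) in WT clusters 1 to 3. For complex V, the 4 Atp5 genes over mt-Atp6 gave 1.27 (0.869 to 1.86), 0.339 (0.316 to 0.363), 1.08 (0.95 to 1.23) and 2.60 (1.89 to 3.62) in H3K36M clusters, against 0.549 (0.517 to 0.583), 0.758 (0.725 to 0.791) and 0.563 (0.475 to 0.667) in WT clusters. Cluster 2 had the lowest ratio and cluster 4 the highest of the H3K36M section in both complexes. For complex III, Uqcr11 over mt-Cytb gave 0.762 (0.372 to 1.53), 0.131 (0.111 to 0.154), 0.459 (0.354 to 0.592) and 0.697 (0.391 to 1.22) in H3K36M clusters 1 to 4. Cluster 2 was lowest there too, while the intervals of clusters 1, 3 and 4 overlapped and cluster 1 had the highest value.

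**Figure D3:**
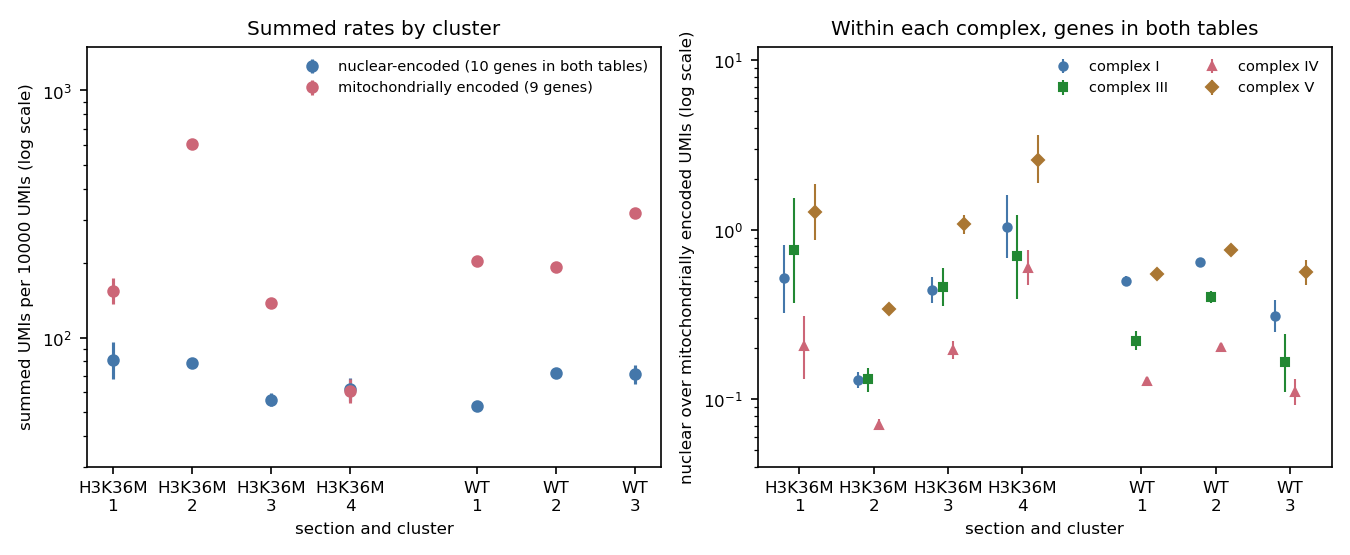
Left, summed rates (vertical axis, UMIs per 10000 UMIs, log scale) of the 10 nuclear-encoded genes listed for both sections and of the 9 mitochondrially encoded genes in each cluster; right, UMIs of nuclear over mitochondrially encoded genes within each complex (log scale), where complex I is by name (Ndufb9 and Ndufa4, mostly Ndufa4, over 4 mt-Nd genes). Bars are 95% intervals for counting error only; in H3K36M cluster 2 the mitochondrially encoded genes reach 609 and the nuclear genes 78.7, and in cluster 4 they stand at 60.9 and 61.7.

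The whole sections were set side by side for the 10 genes, as values of 1 section each. Together they took 69.5 UMIs per 10000 (67.3 to 71.7) in the H3K36M section and 64.8 (63.8 to 65.8) in the WT section, a ratio of 1.07 (1.04 to 1.11). The ratio of mitochondrially encoded genes was 1.91 (1.88 to 1.95). The 11 muscle genes listed for both sections took 71.6 (69.4 to 73.8) in the H3K36M section and 27.9 (27.2 to 28.6) in the WT section, and their part in these ratios was not tested. The 10 genes were those that passed the higher listing limit of the H3K36M section, so a gene low in that section had less chance to be compared. Of the 51 genes, 4 reached that limit, 7.24 UMIs per 10000, in some WT cluster (Atp5a1, Atp5b, Cox6c and Ndufa4), and all 4 were listed for the H3K36M section. The other 6 of the 10 came from the 47 genes below it. Atp5l, the g subunit of ATP synthase, came nearest to it among genes not listed for the H3K36M section, with 7.15 (5.34 to 9.37) in WT cluster 3.

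The genes did not share 1 ratio. The 4 ATP synthase genes had ratios from 1.22 (1.09 to 1.37) for Atp5e to 1.36 (1.17 to 1.57) for Atp5d, and Cox4i1 and Ndufb9 had 1.32 (1.18 to 1.48) and 1.40 (1.18 to 1.65). Cox7c stood at 1.01 (0.899 to 1.14). Atp5d, Atp5e, Cox4i1, Ndufb9 and Cox7c, like Uqcr11, did not reach the H3K36M listing limit in any WT cluster. They could be compared only because an H3K36M cluster reached it, which favours ratios above 1. Of the 4 genes that reached it in a WT cluster, Atp5a1 and Atp5b had 1.30 and 1.34, and Cox6c and Ndufa4 lay below 1. Cox6c, at 0.884 (0.799 to 0.977), moved to 1.02 when only UMIs of genes listed for both sections were counted. Ndufa4 had 7.95 (7.24 to 8.72) in the H3K36M section and 13.0 (12.5 to 13.4) in the WT section, a ratio of 0.613 (0.554 to 0.677), which was the lowest of the 10. It became 1.08 when the median UMI counts of the deposited metrics set the scale, under which the other 9 ratios lay between 1.56 and 2.46.

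As a share of the UMIs of the 10 genes, which no scaling changes, Ndufa4 made up 11.4% (10.5 to 12.5) in the H3K36M section and 20.0% (19.4 to 20.7) in the WT section. By cluster its share was 12.1% (7.24 to 18.7), 11.1% (9.84 to 12.4), 12.5% (10.6 to 14.7) and 10.4% (7.31 to 14.2) in H3K36M clusters 1 to 4, against 23.2% (22.0 to 24.5), 18.6% (17.8 to 19.4) and 18.6% (15.3 to 22.2) in WT clusters 1 to 3. All 4 H3K36M shares lay below all 3 WT shares, though the interval of cluster 1, with 17 UMIs, overlapped those of WT clusters 2 and 3. The share rests on which other genes were listed. Of them, Atp5d, Atp5e, Cox4i1, Cox7c, Ndufb9 and Uqcr11 reached the H3K36M listing limit in H3K36M clusters and in no WT cluster. Atp5d, Ndufb9 and Uqcr11 were listed through H3K36M cluster 1 alone, and Cox6c, Cox7c and Atp5e through H3K36M cluster 2 alone. Such listing favours a high H3K36M total, which lowers the share of Ndufa4 there. Among the genes that also reached the same limit in a WT cluster, Cox6c made up 12% (11.0 to 13.1) in the H3K36M section and 14.6% (13.99 to 15.1) in the WT section. Atp5b went the other way, with 17.3% (16.2 to 18.5) in the H3K36M section and 13.8% (13.3 to 14.4) in the WT section. So did Atp5a1, with 11.3% (10.4 to 12.4) in the H3K36M section and 9.38% (8.91 to 9.86) in the WT section. The sections also differed in depth and in the tissue they held, and neither can be told apart from genotype.

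**Figure D4:**
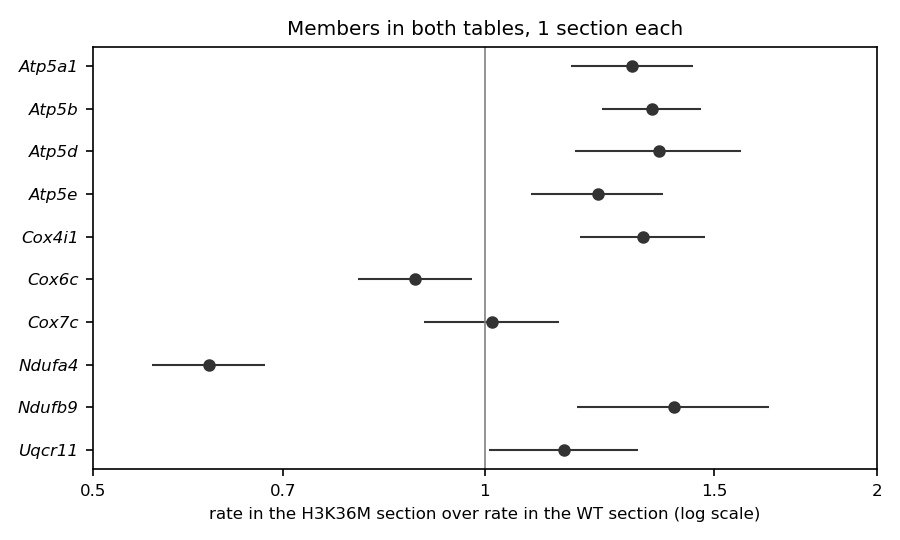
Rate in the H3K36M section over rate in the WT section (horizontal axis, log scale) for each of the 10 genes listed for both sections, with 95% exact conditional intervals that cover counting error only. Ndufa4 lies lowest at 0.613 and Ndufb9, listed through H3K36M cluster 1 alone, highest at 1.40. Counted over genes listed for both sections, Cox6c crosses to 1.02. Under the median UMI counts of the deposited metrics all 10 lie above 1, Ndufa4 at 1.08.

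The other energy genes listed for the H3K36M section were few. Slc25a3, the mitochondrial phosphate carrier, was higher in cluster 2 at 0.70 and lower in cluster 3 at -0.74, and Slc25a5 was lower in cluster 3 at -0.68, in the authors' deposited table. Chchd2, a small protein of the mitochondrial intermembrane space, had p-values above 0.05 in every cluster. Of 5 listed glycolysis genes (Aldoa, Gapdh, Ldha, Pkm and Tpi1), 0 were higher or lower in any H3K36M cluster in the authors' deposited table. Among all 298 genes, 4.36%, 33.9%, 23.5% and 18.5% were higher in clusters 1 to 4. The shares lower were 6.38%, 30.5%, 34.6% and 36.2%. With 5 genes, a count of 0 shows little beside these shares. Summed rates of the 5 glycolysis genes were 49.7 (39.8 to 61.4), 40.5 (38.3 to 42.8), 39.0 (36.3 to 41.9) and 43.6 (38.1 to 49.5) UMIs per 10000 in clusters 1 to 4, all overlapping. No gene of the citric acid cycle and fatty acid oxidation list, and no Sdh gene, was listed for the H3K36M section.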

How the data were processed

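Visium data from 1 tongue section per genotype were used, and sample titles gave the groups. Space Ranger and GRCm38 (mm10) are named in the submitters' processing notes, and versions, annotation and cluster settings were not found in the labels or headers. Counts of spots and reads, signal values per spot and quality measures as a fraction stand in the deposited metrics. For each gene and cluster, the authors deposited an average signal, its log2 fold change and a p-value, as named in the headers.

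In each cluster 1 step divided every average (100% whole within 0.01), as UMI counts over summed size factors would be. With 1 UMI added to both sides, these counts gave every deposited log2 fold change of a cluster over all other clusters. The smallest multiple of 0.5 that made all cluster totals whole, 1380.5 (H3K36M) and 5027 (WT), was taken for the median UMIs of clustered spots, where the metrics give 763.5 and 4899. Rates rest on that reading, while folds within a section and ratios of genes do not. Intervals are exact (Poisson, conditional or Clopper-Pearson binomial, 95%). Recovery of UMIs and the ratio interval were tested on simulated tables. No test of spots was run. A gene was counted as higher or lower at a deposited p-value under 0.05.

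The members and gene lists were chosen with earlier results of these data known. The members with the 3 highest and 3 lowest fold changes per cluster, those in both tables and the muscle isoform genes were named. All 879 identifiers matched GENCODE M21 (GRCm38). Python 3.11.15, numpy 2.4.6, pandas 2.3.3, scipy 1.17.1 and matplotlib 3.10.9 were used.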

Additional observations from a re-analysis of the deposited data

How the results depend on the processing

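No paired analysis was possible because each genotype had 1 section, and no replicate was left out. Counting a log2 fold change of 0.5 or more at any p-value gave 3 genes higher and 1 lower in H3K36M cluster 1, 1 lower in H3K36M cluster 2, 1 lower in H3K36M cluster 4, and 8 higher and 2 lower in WT cluster 3. Keeping genes whose average over the whole section reached 1 moved the median log2 fold change to -0.014 in H3K36M cluster 1, which turned its direction, and to 0.52 in H3K36M cluster 2. Without genes listed through 1 cluster alone, it was -0.13 in H3K36M cluster 4.

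With UMIs of genes listed for both sections as the denominator, summed rates were 241, 165, 122 and 197 in H3K36M clusters 1 to 4, and 98.3, 142 and 139 in WT clusters 1 to 3. The section rates were then 154 (H3K36M) and 124.8 (WT), at a ratio of 1.23. The ratios to the other clusters became 1.59, 1.19 and, in the other direction, 1.31 in H3K36M clusters 1, 2 and 4, and 0.661 and 1.46 in WT clusters 1 and 2. Without mitochondrially encoded genes in the denominator, rates were 83.9 in H3K36M cluster 2, 153 and 220.3 in WT clusters 1 and 2, 72.3 in the H3K36M section and 66.1 in the WT section.

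Over the 10 genes listed for both sections, 9 were lower in WT cluster 1, 9 higher and 0 lower in WT cluster 2 and 0 higher in WT cluster 3, where the median turned to -0.019. Their rates were 52.7, 72.1 and 71.0 in WT clusters 1 to 3, and their nuclear to mitochondrially encoded ratios 0.259, 0.374 and 0.222. Without the muscle isoform genes, 0 were lower in WT cluster 2 and 0 higher in WT cluster 3. With the median UMI counts of the deposited metrics, section rates were 125.6 (H3K36M) and 66.5 (WT), at a ratio of 1.89. Without Ndufa4 they were 61.5 (H3K36M) and 51.8 (WT), at a ratio of 1.19. The metrics' medians, leaving out Ndufa4 or genes listed through 1 cluster, and all denominators for ratios to other clusters were chosen after seeing the data. H3K36M cluster 1 and WT cluster 3 had the fewest UMIs, which limits what single genes show there.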
